A study of Drosophila melanogaster with 54 samples.

Results

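The genes edl, aop, sty, Mkp3 and phyl act inside the cell on Ras signalling, and were followed through 54 microarrays of sorted Drosophila embryonic cells. They were taken as every probe set (a group of oligonucleotides that together read 1 transcript) annotated to one of these 5 genes alone. That gave 6 probe sets of the 13966 that are not array controls, and 5 genes of the 10844 named by a probe set of their own. Mkp3 has 2 probe sets, 149030_at and 141660_at. The others have 1 each: 153855_at for edl, 143073_at for aop, 143757_at for sty and 143714_at for phyl.

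Receptor tyrosine kinases such as the EGF and FGF receptors signal through Ras and a chain of kinases to MAP kinase, which enters the nucleus and changes the activity of transcription factors of the ETS family. In the embryonic mesoderm this pathway helps to choose the progenitors that become muscle founder cells, while Notch signalling holds their neighbours back as fusion-competent myoblasts. aop encodes Yan, an ETS repressor that phosphorylation by MAP kinase inactivates. edl encodes a protein with a SAM domain and no DNA-binding domain, which binds ETS proteins and counteracts Yan. sty encodes Sprouty, an intracellular inhibitor of receptor tyrosine kinase signalling, and Mkp3 a phosphatase that removes the activating phosphates from MAP kinase. phyl encodes an adaptor that brings the repressor Tramtrack to the ubiquitin ligase Sina, best known from photoreceptors and sensory organ precursors.

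All embryos carried Twi-GAL4 and UAS-GFP, so that cells with Twist expression were green, and all were kept at 25 °C before the cells were dissociated and sorted by FACS. Each of 3 numbered sets holds 3 arrays of GFP positive (mesodermal) cells and 3 of GFP negative (nonmesodermal) cells from wild type embryos, and every group has 3 arrays. In set 1 the GFP positive cells also came from embryos with UAS-lambda-Top (activated EGFR, called EGFR here), with UAS-lambda-Htl and UAS-Dof (activated FGFR, called FGFR), and from spi mutants, which lack an EGFR ligand. Set 2 added UAS-Arm s10 (Arm), UAS-Ras1 Act (Ras), both of these (Arm+Ras), UAS-Pnt P2VP16 (Pnt, an ETS activator fused to a viral activation domain), UAS-Tkv QD (Tkv, an activated Dpp receptor) and wg mutants. Set 3 added Dl mutants, lmd mutants and UAS-Notch intra (Notch). The driver acts in all Twist-expressing cells, so an activated protein was not limited to 1 muscle lineage. Embryos were 5.5 to 7.5 h old, but the Dl, lmd and Notch embryos were 6 to 8 h old, so age and genotype cannot be told apart where those 3 are set against wild type. Comparisons among the 3 are matched for age. The labels do not say whether the arrays of a group came from separate collections, so p-values measure only the spread between these arrays, which may be technical. In bulk RNA, fewer cells of a type and less RNA per cell cannot be told apart.

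The values are log2 summaries per probe set. Set 1 had array medians of 4.575 to 4.6205, set 2 of 4.166 to 4.2755 and set 3 of 3.648 to 3.725, so levels were compared only within a set. Levels of different probe sets were not ranked against each other, because their oligonucleotides differ in brightness. Arrays of a group correlated at 0.872 to 0.943 over all probe sets, and the number of arrays, 3 a group, limits the precision. In the GFP positive cells of wild type, all 5 measured mesoderm markers (twi, htl, Him, zfh1 and bap, of 7 listed) were higher than in GFP negative cells, with a mean log2 level of 7.28 to 7.39 against 4.55 to 5.01 in set 1. All 6 measured markers of ectoderm, epidermis and trachea were lower. A probe set of Egfr was 3.41 ± 0.14 (log2 difference ± SE) above wild type in EGFR, htl was 1.87 ± 0.32 above in FGFR, and a probe set of tkv was 4.04 ± 0.17 above in Tkv. The probe sets of spi and lmd did not differ from wild type in their own mutants (0.00 ± 0.04 and 0.44 ± 0.12 with adjusted p = 0.995 and 0.149). A mutant can still make a transcript, so these readings do not check the labels.

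A gene was called higher or lower at an adjusted p under 0.05, from limma's moderated test with Benjamini-Hochberg adjustment over all 13966 probe sets. Mkp3 was counted by the brighter probe set, 149030_at. The number of the 5 genes called is given beside the percentage of all probe sets called in the same comparison, in the same direction where the members went 1 way.

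**Figure D1:**
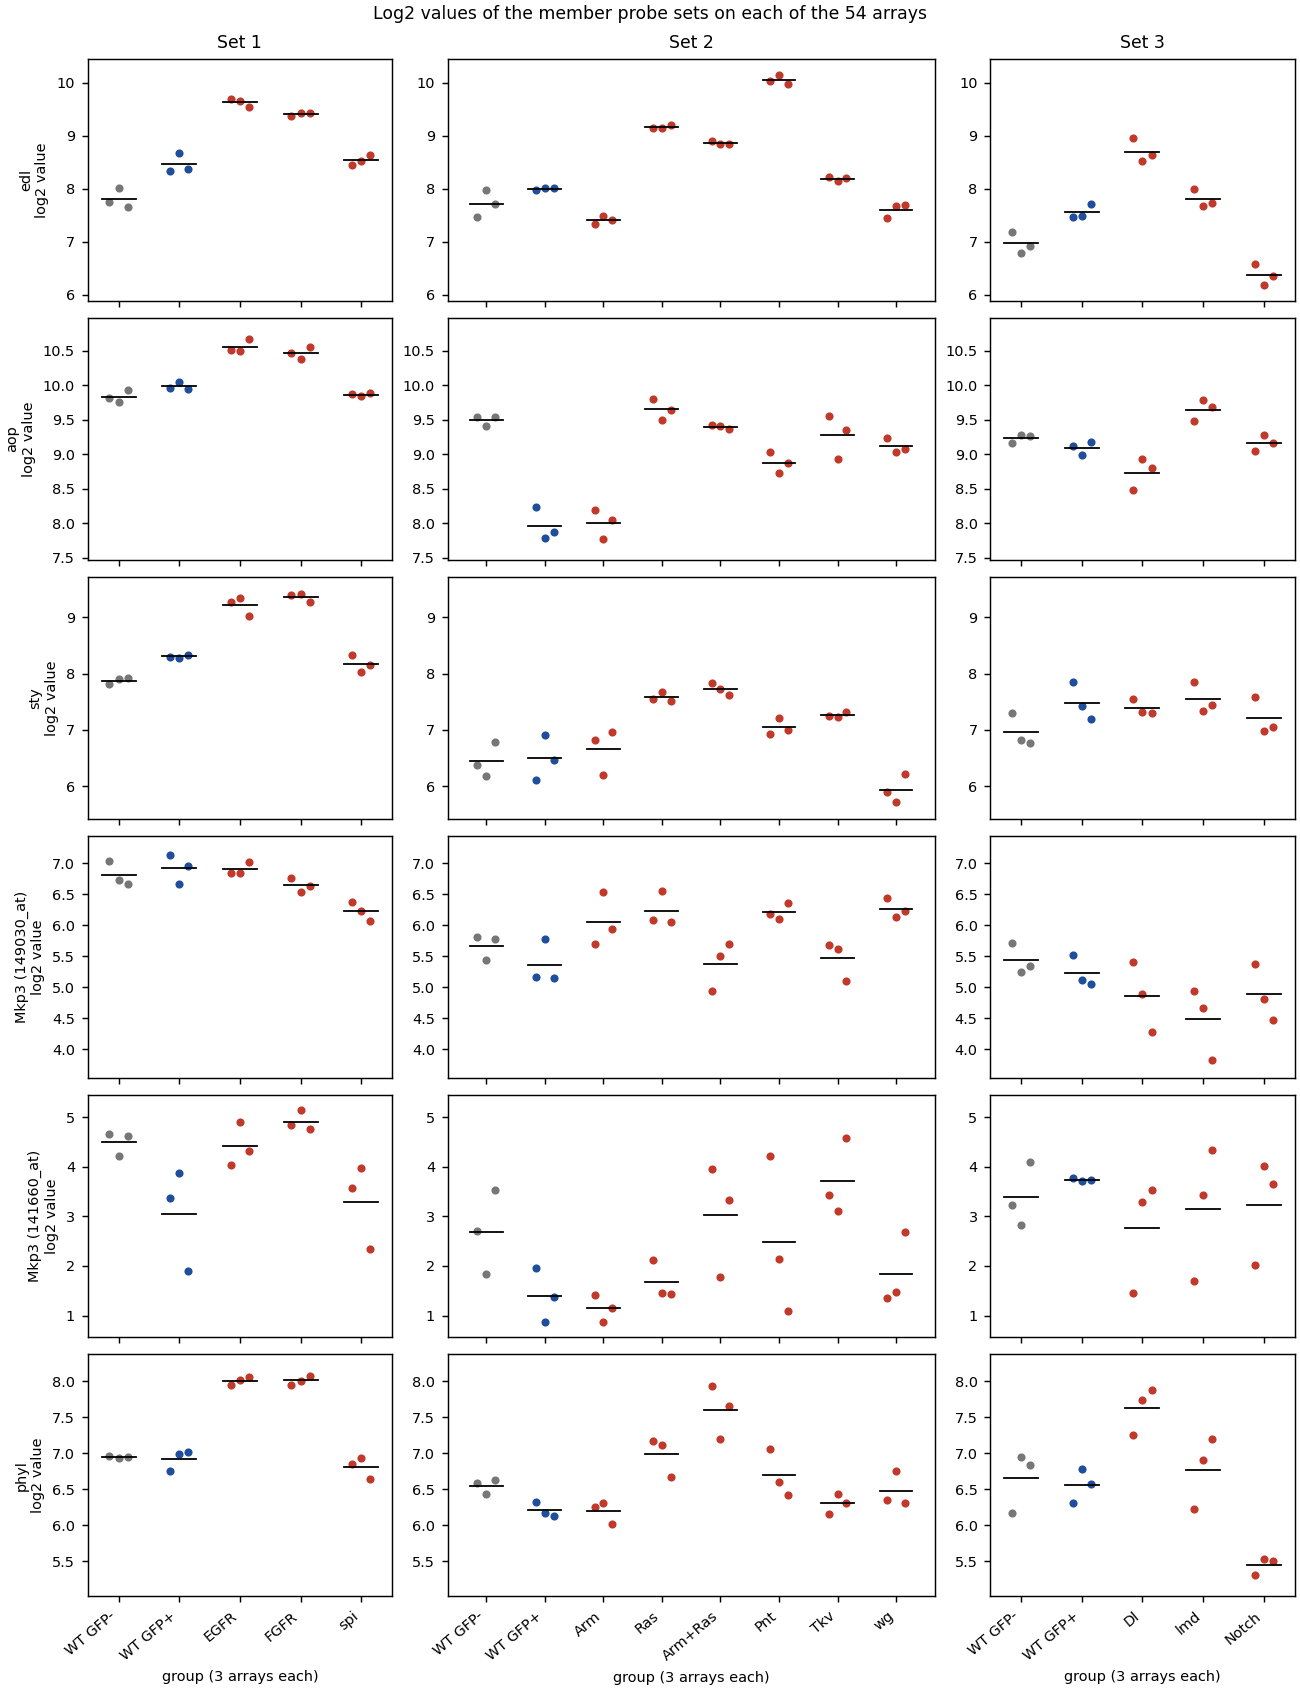
Log2 values (y axis) of the 6 probe sets (panel rows) in every group (x axis) of the 3 sets (panel columns), with 1 point per array and a bar at the mean of 3 arrays. edl was highest in the Pnt arrays within set 2 and lowest in the Notch arrays within set 3, aop was low in wild type GFP positive cells and in Arm of set 2, and the dim Mkp3 probe set 141660_at scattered within groups.

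Activated EGFR and activated FGFR raised the same 4 of the 5 genes: edl, aop, sty and phyl were called higher in both, and Mkp3 in neither. In EGFR this was 4 of 5 genes against 1.3% of all probe sets called higher, and in FGFR 4 of 5 against 1.23%. Both comparisons use the same 3 wild type arrays. The median over the 5 genes was 0.907 in EGFR and 0.956 in FGFR, beside 0.00667 and 0.0105 over all probe sets.

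For edl, the antagonist of Yan, the wild type GFP positive arrays of set 1 read 8.34, 8.67 and 8.37. The EGFR arrays read 9.70, 9.66 and 9.53, and the FGFR arrays 9.38, 9.44 and 9.43. All 6 receptor arrays were above all wild type arrays, by 1.17 ± 0.10 on the log2 scale in EGFR (2.25-fold, limma adjusted p = 1.22e-05) and by 0.96 ± 0.10 in FGFR (1.94-fold, adjusted p = 9.56e-05). aop rose less. Its wild type arrays read 9.96, 10.05 and 9.95, its EGFR arrays 10.51, 10.50 and 10.67, and its FGFR arrays 10.46, 10.38 and 10.55. The groups did not overlap, and the differences were 0.58 ± 0.06 in EGFR (1.49-fold, limma adjusted p = 7.24e-05) and 0.48 ± 0.06 in FGFR (1.39-fold, adjusted p = 0.000432).

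sty, the Sprouty gene, had a tight wild type group at 8.30, 8.28 and 8.33. It read 9.26, 9.35 and 9.02 in EGFR, and 9.39, 9.41 and 9.27 in FGFR. It was thus higher on every receptor array, by 0.91 ± 0.09 in EGFR (1.87-fold, limma adjusted p = 4.45e-05) and by 1.06 ± 0.09 in FGFR (2.08-fold, adjusted p = 1.17e-05). phyl read 6.75, 6.98 and 7.02 in wild type, 7.95, 8.01 and 8.05 in EGFR, and 7.95, 8.01 and 8.07 in FGFR. Its rise was almost the same size under both receptors, 1.09 ± 0.09 in EGFR (2.12-fold, limma adjusted p = 1.2e-05) and 1.09 ± 0.09 in FGFR (2.13-fold, adjusted p = 1.21e-05). These 8 calls held when any 1 array of the groups compared was left out. Without all arrays with the letter A, an alternative chosen after seeing the data, aop in FGFR lost its call (0.46, limma adjusted p = 0.0571), which left 3 of 5 genes there and 4 of 5 in EGFR. The aop call in FGFR was also lost with no variance trend (limma adjusted p = 0.0528).

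Mkp3 behaved differently at its 2 probe sets. 149030_at read 7.14, 6.67 and 6.96 in wild type, 6.84, 6.85 and 7.02 in EGFR, and 6.76, 6.54 and 6.63 in FGFR. These groups overlapped, with differences of -0.02 ± 0.14 and -0.28 ± 0.14 (limma adjusted p = 0.982 and 0.424). 141660_at was above wild type on all 6 receptor arrays, by 1.36 ± 0.50 and 1.86 ± 0.50, but its wild type arrays spread from 1.90 to 3.88 and neither difference was called (limma adjusted p = 0.236 and 0.0822). Without wild type array 1B the FGFR difference at 141660_at was 2.28 with an adjusted p of 0.0405. That was the lowest of the 6 fits that left out 1 array.

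Set directly against each other, EGFR and FGFR differed for none of the 5 genes by limma's test, where 0.229% of all probe sets were called. At an unadjusted p under 0.05, 1 gene differed, edl, which was 0.22 ± 0.10 higher in EGFR with a 95% interval of 0.00 to 0.43. The interval of the difference was -0.03 to 0.23 for aop, -0.34 to 0.04 for sty, -0.04 to 0.56 for Mkp3 149030_at and -0.20 to 0.19 for phyl.

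Markers of muscle cell states moved with these groups. Of the 5 founder cell markers, 4 were higher in EGFR and 4 in FGFR, and their mean log2 level was 6.47 to 6.95 in EGFR, 6.79 to 7.04 in FGFR and 5.32 to 5.62 in wild type. Of the 6 markers of fusion-competent myoblasts, 3 were lower in EGFR and 4 in FGFR, with mean levels of 6.87 to 7.17, 6.74 to 7.02 and 7.80 to 7.89 in the same order. The part of such a shift in the values of the 5 genes was not tested. The log2 summaries carry no absence call, so a marker that is not expressed cannot be told from a dim one.

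Loss of spi, the ligand gene, left the members close to wild type, with 1 of 5 called lower against 1.43% of all probe sets. edl read 8.46, 8.53 and 8.64, within 0.08 ± 0.10 of wild type, and the 95% interval of the difference, -0.13 to 0.29, excludes a fall of the size of the rise in EGFR. The intervals were -0.25 to 0.01 for aop, -0.32 to 0.06 for sty and -0.31 to 0.09 for phyl. The gene called lower was Mkp3, at its probe set 149030_at. 149030_at read 6.38, 6.23 and 6.07, all below the 3 wild type arrays, and the difference was -0.69 ± 0.14 (limma adjusted p = 0.0156). This call was lost without spi array 1C, wild type array 1A or wild type array 1C, with adjusted p from 0.00623 to 0.0708 over the 6 fits. It was also lost when the arrays with the letter A were left out. The other probe set, 141660_at, differed with the opposite sign, by 0.24 ± 0.50 (limma adjusted p = 0.864). With the mean over the probe sets of Mkp3 the difference was -0.22 (limma adjusted p = 0.725), so a fall of Mkp3 rests on 149030_at alone. EGFR set against spi, the gain of the receptor against the loss of its ligand, gave all 5 genes higher in EGFR, where 2.58% of all probe sets were called higher. The differences were 1.09 for edl, 0.70 for aop, 1.04 for sty, 0.68 for Mkp3 149030_at and 1.20 for phyl, with limma adjusted p from 2.86e-06 to 0.0103. The Mkp3 call was lost without spi array 1C (0.60, adjusted p = 0.0534, range 0.0155 to 0.0534). These EGFR arrays are the ones already set against wild type.

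**Figure D2:**
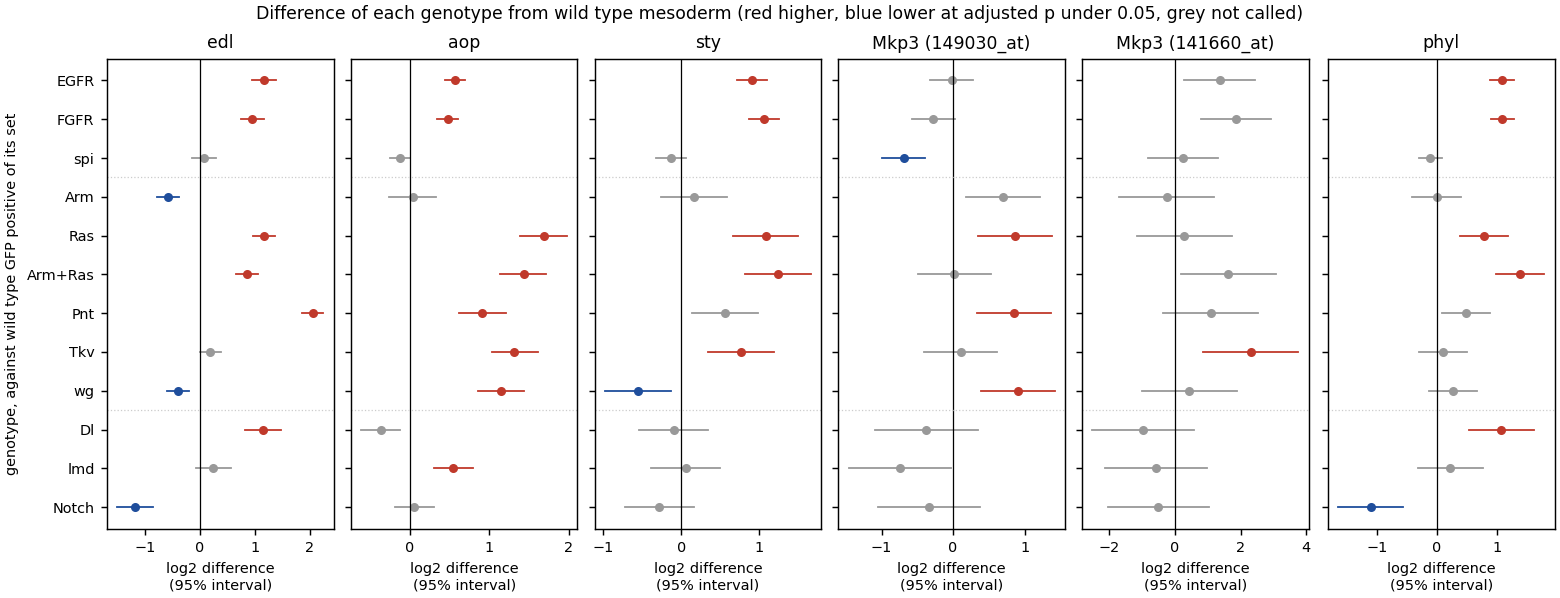
Log2 difference (x axis) of each genotype (y axis) from the wild type GFP positive cells of its own set, for each probe set, as a point with its 95% interval from the limma fit. Red marks calls higher and blue calls lower, dotted lines separate the sets, and the x axes differ between panels. edl was called in 9 of the 12 genotypes, higher in 6 and lower in 3.

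Activated Ras, which acts below the receptors, was the genotype in which all 5 genes were called higher than wild type, against 2.47% of all probe sets. The median over the 5 genes was 1.08, beside -0.004 over all probe sets. edl read 7.98, 8.02 and 8.01 in the wild type GFP positive cells of set 2 and 9.15, 9.15 and 9.21 in Ras. That is a difference of 1.17 ± 0.10 (2.25-fold, limma adjusted p = 1.64e-07) with no overlap. aop read 8.23, 7.79 and 7.88 in wild type and 9.81, 9.50 and 9.64 in Ras, a difference of 1.68 ± 0.14 (3.21-fold, adjusted p = 1.84e-07 by limma). sty went from 6.11, 6.91 and 6.46 to 7.54, 7.67 and 7.51, by 1.08 ± 0.20 (2.12-fold, limma adjusted p = 0.00205). All Ras arrays were above all wild type arrays for these 3 genes, and their calls held without any 1 array.

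The other calls in Ras were less secure. phyl read 6.33, 6.17 and 6.12 in wild type and 7.17, 7.12 and 6.67 in Ras, a difference of 0.78 ± 0.19 (limma adjusted p = 0.0195). Mkp3 149030_at read 5.17, 5.78 and 5.14 in wild type and 6.08, 6.56 and 6.05 in Ras, a difference of 0.86 ± 0.25 (adjusted p = 0.0483 by limma). With 1 array left out, the phyl call held only without Ras array 2C or wild type array 2A (adjusted p 0.0121 to 0.103), and the Mkp3 call held only without wild type array 2B (0.0264 to 0.226). Without the arrays with the letter A, 2 of 5 genes were called, and sty was among those lost (0.91, limma adjusted p = 0.134). The second Mkp3 probe set, 141660_at, differed by 0.28 ± 0.69 (limma adjusted p = 0.943). The Mkp3 call in Ras was also lost with no variance trend and with only the groups compared (limma adjusted p = 0.0817 and 0.101). With the mean over the probe sets of Mkp3 it was lost as well (limma adjusted p = 0.503).

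Activated Pnt, an ETS activator that works at the end of the pathway, gave the highest edl values of set 2. Its arrays read 10.03, 10.15 and 9.99, which is 2.06 ± 0.10 above wild type (4.16-fold, limma adjusted p = 2.02e-11) and above every other array of the set. In all, 3 of 5 genes were called higher in Pnt, against 3.87% of all probe sets. aop read 9.04, 8.73 and 8.87, above all wild type arrays by 0.91 ± 0.14 (1.88-fold, limma adjusted p = 0.000117). Mkp3 149030_at read 6.19, 6.11 and 6.35, a difference of 0.85 ± 0.25 (adjusted p = 0.0317 by limma). That call held only without wild type array 2B (adjusted p 0.0147 to 0.134), and it was lost without the arrays with the letter A. sty and phyl were not called in Pnt. sty read 6.93, 7.22 and 7.01 there, 0.56 ± 0.20 above wild type (limma adjusted p = 0.104). Without wild type array 2B the difference was 0.77 with an adjusted p of 0.0255, the lowest of the 6 fits. phyl read 7.06, 6.59 and 6.42, 0.49 ± 0.19 above wild type (adjusted p = 0.142 by limma).

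Pnt and Ras were also compared directly, which does not use the wild type arrays, and 2 of 5 genes differed, against 9.77% of all probe sets. edl was higher in Pnt by 0.88 ± 0.10 (limma adjusted p = 2.2e-06). aop was lower in Pnt by 0.77 on the log2 scale, at -0.77 ± 0.14 (limma adjusted p = 0.000722). The groups did not overlap for either gene, and both calls held without any 1 array. The intervals of the other differences were -0.95 to -0.10 for sty, -0.52 to 0.50 for Mkp3 149030_at and -0.70 to 0.11 for phyl. In the Pnt arrays the 6 measured markers of ectoderm, epidermis and trachea had a mean level of 3.25 to 3.66, below the 4.89 to 5.36 of wild type and the 4.82 to 4.97 of Ras. Of these markers 3 were called lower than in wild type, and the part of this in the values of the members was not tested.

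Arm alone lowered 1 of the 5 genes, against 4.37% of all probe sets called lower. edl read 7.34, 7.49 and 7.42, below all 3 wild type arrays, with a difference of -0.59 ± 0.10 (limma adjusted p = 0.000362) that was called without any 1 array. aop, sty and phyl differed from wild type by 0.04 ± 0.14, 0.16 ± 0.20 and -0.01 ± 0.19. Mkp3 149030_at differed by 0.70 ± 0.25 (limma adjusted p = 0.106). It passed without Arm array 2A or wild type array 2B, with adjusted p of 0.0497 and 0.0494, the lowest of the 6 fits being the second. The neural markers moved with Arm: 3 of 7 were called lower, and their mean level was 4.21 to 4.58 against 5.18 to 5.62 in wild type. Their part in the edl value was not tested.

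Arm and Ras together raised edl, aop, sty and phyl, 4 of 5 genes against 1.37% of all probe sets. edl read 8.90, 8.84 and 8.85, above wild type by 0.86 ± 0.10. aop read 9.42, 9.40 and 9.36, above it by 1.43 ± 0.14. sty read 7.83, 7.73 and 7.63, above it by 1.24 ± 0.20, and phyl read 7.93, 7.19 and 7.66, above it by 1.39 ± 0.19. The adjusted p-values of these 4 differences ran from 1.52e-06 to 0.00101 by limma, and the groups did not overlap. Mkp3 149030_at, at 4.94, 5.51 and 5.69, differed by 0.02 ± 0.25. Without the arrays with the letter A, sty lost its call (0.99, limma adjusted p = 0.145) and 3 of 5 genes were called. Markers moved with Ras and with Arm+Ras. Of the 5 founder cell markers 3 were higher in each, with mean levels of 5.56 to 5.97 in Ras, 5.67 to 5.97 in Arm+Ras and 3.90 to 4.13 in wild type. The 5 mesoderm markers averaged 7.36 to 7.55 in Ras, 7.64 to 7.79 in Arm+Ras and 6.49 to 6.55 in wild type, with 1 called higher in each. The markers of fusion-competent myoblasts averaged 6.14 to 6.55, 5.78 to 6.11 and 6.63 to 6.90 in the same order, with 1 and 2 of 6 called lower. The part of these in the values was not tested.

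Adding Ras to Arm was tested without the wild type arrays. edl rose by 1.45 ± 0.10, aop by 1.39 ± 0.14, sty by 1.07 ± 0.20 and phyl by 1.40 ± 0.19 over Arm alone (limma adjusted p from 4.78e-09 to 0.00149), 4 of 5 genes against 4.61% of all probe sets. Mkp3 149030_at differed by -0.68 ± 0.25 (adjusted p = 0.111), and 141660_at went the other way, by 1.88 ± 0.69 (limma adjusted p = 0.121). Adding Arm to Ras gave 0 of 5 calls by limma, against 1.6% of all probe sets, and 3 of 5 at an unadjusted p under 0.05. These were edl at -0.31 ± 0.10, Mkp3 149030_at at -0.85 ± 0.25 and phyl at 0.61 ± 0.19. Their intervals, -0.51 to -0.11, -1.36 to -0.34 and 0.21 to 1.01, do not reach 0, and the adjusted p-values were 0.132, 0.103 and 0.145. At 141660_at Mkp3 had the opposite sign here too, at 1.35 ± 0.69 (limma adjusted p = 0.499).

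The effect of both proteins was set against the sum of the effects of Arm and of Ras. For edl, aop, sty and phyl the departure from that sum was 0.28 ± 0.13, -0.29 ± 0.20, -0.01 ± 0.29 and 0.62 ± 0.27, none called. The gene that departed was Mkp3, with 1 of 5 called below the sum against 2.09% of all probe sets. At 149030_at Arm+Ras lay 1.55 below the sum on the log2 scale, a departure of -1.55 ± 0.35 (limma adjusted p = 0.011). It was called in all 12 fits without 1 array (adjusted p 0.00568 to 0.0389), but not without the arrays with the letter A. At the other probe set of Mkp3, 141660_at, the departure had the opposite sign, 1.60 ± 0.98 (adjusted p = 0.459).

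**Figure D3:**
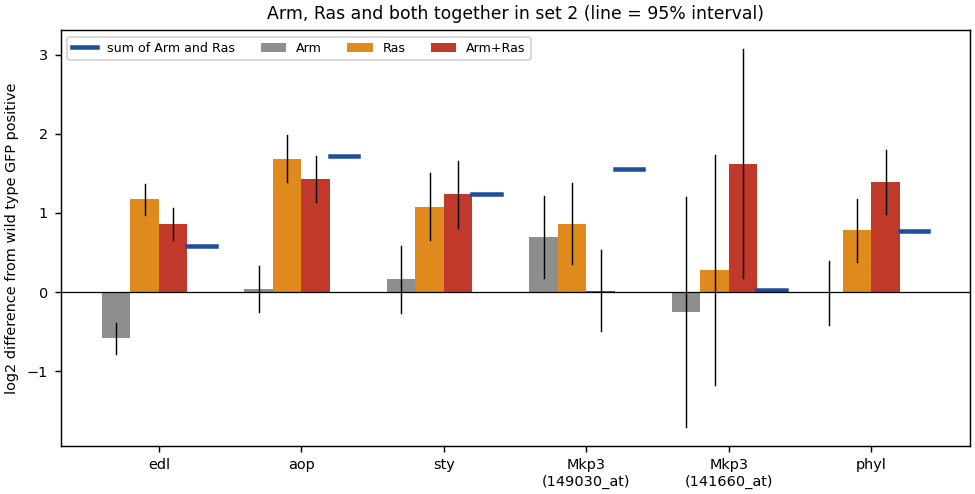
Log2 difference from wild type GFP positive cells (y axis) for Arm, Ras and Arm+Ras at each probe set (x axis), as bars from 0 with the 95% interval of the limma fit. The blue mark is the sum of the Arm and Ras differences, and at Mkp3 149030_at the Arm+Ras bar lies 1.55 below it.

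aop in set 2 has a feature that touches each of its comparisons with wild type there. The wild type GFP positive arrays, at 8.23, 7.79 and 7.88, and the Arm arrays, at 8.19, 7.77 and 8.05, were the lowest of the set, and every other group lay above them without overlap. aop was accordingly called higher in 5 of the 6 genotypes of set 2, and the order of the means was Ras at 9.65, Arm+Ras at 9.40, Tkv at 9.28, wg at 9.12, Pnt at 8.88 and Arm at 8.00. Ras did not overlap Arm+Ras, and Pnt did not overlap Arm; the other neighbours in this order overlapped. The same wild type cells were also 1.53 below GFP negative cells in set 2, at -1.53 ± 0.14, while this difference was 0.15 ± 0.06 in set 1 and -0.14 ± 0.11 in set 3. An F test over the wild type arrays found that it varied between sets (limma adjusted p = 5.57e-06, against 7.94% of all probe sets). The hybridization controls spiked into the samples averaged 9.01 to 9.49 on those wild type arrays, 10.09 to 10.43 on the GFP negative arrays and 9.61 to 10.22 on the Arm arrays. Their part in the aop values was not tested. The higher aop of Arm+Ras than of Arm, 1.39 ± 0.14, does not use those wild type arrays. It rests on the Arm arrays instead, which were as low, so it is not free of this feature.

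Tkv, an activated receptor of the Dpp pathway, raised 2 of 5 genes against 4.43% of all probe sets. aop read 9.56, 8.94 and 9.35, a difference of 1.32 ± 0.14 (2.49-fold, limma adjusted p = 3.81e-06). sty read 7.25, 7.22 and 7.31, a difference of 0.77 ± 0.20 (1.7-fold, limma adjusted p = 0.0195). The sty call held only without Tkv array 2B or wild type array 2B (adjusted p 0.00636 to 0.108). edl read 8.23, 8.14 and 8.21, 0.19 ± 0.10 above wild type (limma adjusted p = 0.299), and phyl differed by 0.10 ± 0.19. The dim Mkp3 probe set 141660_at was called higher, by 2.31 ± 0.69 (adjusted p = 0.0426 by limma), a call that held only without Tkv array 2B or wild type array 2A (0.0452 to 0.207). 149030_at differed by 0.11 ± 0.25. Without the arrays with the letter A, 1 of 5 genes was called. In Tkv, 3 of 5 hemocyte markers were higher, with a mean level of 6.91 to 7.26 against 6.04 to 6.43 in wild type. Of the markers of fusion-competent myoblasts 2 of 6 were higher, at 7.31 to 7.56 against 6.63 to 6.90, and 1 of 5 founder cell markers was lower. Their part in the values was not tested.

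Loss of wg gave 4 of 5 calls in both directions, but 26.6% of all probe sets were called in this comparison. edl fell by 0.39 on the log2 scale, at -0.39 ± 0.10 (limma adjusted p = 0.00311), with arrays at 7.45, 7.68 and 7.69. sty read 5.90, 5.71 and 6.21 and overlapped wild type, at -0.56 ± 0.20 (limma adjusted p = 0.0482). Its call held only without wg array 2C or wild type array 2A (adjusted p 0.0122 to 0.27). aop was higher by 1.15 ± 0.14 and Mkp3 149030_at by 0.90 ± 0.25 (limma adjusted p = 1.27e-06 and 0.00813). The wg arrays also stood apart in measures of RNA and cell identity. The eIF-4a control read 3.29 to 3.59 higher at its 3′ than at its 5′ probe set in wg, and 2.01 to 2.24 higher in wild type. The hybridization controls read 10.79 to 11.10 in wg and 9.01 to 9.49 in wild type. The 5 mesoderm markers averaged 5.30 to 5.72 in wg and 6.49 to 6.55 in wild type, and 3 were called lower. The part of these in the 4 calls was not tested. Without the arrays with the letter A, 2 of 5 genes were called.

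In set 3, edl and phyl went opposite ways in Dl mutants and under activated Notch. edl read 7.46, 7.48 and 7.72 in wild type GFP positive cells, 8.96, 8.52 and 8.63 in Dl, 8.00, 7.67 and 7.72 in lmd and 6.59, 6.18 and 6.36 in Notch. The Dl arrays were above and the Notch arrays below all others of the set, GFP negative cells included. Against wild type the differences were 1.15 ± 0.15 in Dl (2.22-fold, limma adjusted p = 0.000641) and -1.18 ± 0.15 in Notch (2.26-fold lower, adjusted p = 0.000617), and both calls held without any 1 array. lmd differed by 0.25 ± 0.15 (limma adjusted p = 0.622).

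phyl read 6.31, 6.79 and 6.57 in the wild type GFP positive cells of set 3, 7.26, 7.73 and 7.87 in Dl, 6.22, 6.90 and 7.19 in lmd and 5.31, 5.53 and 5.50 in Notch. Again Dl lay above and Notch below all other arrays of the set. The differences from wild type were 1.07 ± 0.25 in Dl and -1.11 ± 0.25 in Notch (limma adjusted p = 0.0403 and 0.0428). The Dl call held only without Dl array 3A (adjusted p 0.0328 to 0.16), and the Notch call was lost without any 1 of the 6 arrays (0.0613 to 0.185). In all, 2 of 5 genes were called higher in Dl against 0.859% of all probe sets, 2 of 5 lower in Notch against 1.06%, and 1 of 5 higher in lmd against 0.365%.

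The comparisons at matched age do not need those wild type arrays. From Dl to Notch, edl fell by 2.33 on the log2 scale, at -2.33 ± 0.15 (5.02-fold, limma adjusted p = 1.98e-07), and phyl was lower by a similar amount, at -2.17 ± 0.25 (4.51-fold, limma adjusted p = 9.71e-05). From lmd to Notch the differences were -1.43 ± 0.15 for edl and -1.33 ± 0.25 for phyl (limma adjusted p = 4.93e-05 and 0.00801). edl was 0.90 ± 0.15 higher in Dl than in lmd (limma adjusted p = 0.00527), while phyl differed by 0.85 ± 0.25 there (adjusted p = 0.142). With the replicate letter as a block, phyl was called there (limma adjusted p = 0.00362). The 5 calls of the reported fit held without any 1 array. Over all 5 genes, 3 of 5 were called between Notch and Dl against 5.36% of all probe sets, 3 of 5 were lower in Notch than in lmd against 2.23%, and 2 of 5 between Dl and lmd against 1.7%.

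aop, the gene of the repressor that edl counteracts, ran the other way from edl in Dl. It read 9.12, 8.99 and 9.18 in wild type, 8.48, 8.93 and 8.80 in Dl, 9.48, 9.78 and 9.68 in lmd and 9.04, 9.27 and 9.16 in Notch. Dl was the lowest group and lmd the highest, with no overlap with the other groups, GFP negative cells included. The difference between Dl and lmd was -0.91 ± 0.11 (limma adjusted p = 0.000416) and held without any 1 array. lmd was above wild type by 0.55 ± 0.11 (limma adjusted p = 0.031), a call that held only without lmd array 3A (0.021 to 0.149). Dl differed from wild type by -0.36 ± 0.11 (limma adjusted p = 0.141, and 0.0227 with the replicate letter as a block). Notch was 0.42 ± 0.11 above Dl and at -0.49 ± 0.11 from lmd (limma adjusted p = 0.0448 and 0.0277). The first call held only without Dl array 3B or Notch array 3A (adjusted p 0.0276 to 0.169), and the second only without lmd array 3A or Notch array 3B (0.0174 to 0.115). sty was not called by limma in the reported fit in any comparison between the GFP positive groups of set 3. Its values ran from 6.98 to 7.86 over the GFP positive arrays. It passed an unadjusted p of 0.05 in none of these comparisons. With the replicate letter as a block, sty was called lower in Notch than in lmd (limma adjusted p = 0.0351). Mkp3 149030_at was not called between the GFP positive groups of set 3. Its arrays with the letter C were the lowest in each of wild type GFP positive cells, Dl, lmd and Notch.

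Markers of other states moved with edl and phyl in set 3. The 5 founder cell markers had a mean level of 6.24 to 6.45 in Dl, 5.55 to 5.70 in lmd, 4.96 to 5.26 in wild type and 2.75 to 3.05 in Notch. Of them 2 were called higher in Dl and 4 lower in Notch. The 7 measured neural markers averaged 5.83 to 5.92 in Dl, 4.74 to 5.14 in lmd, 5.08 to 5.44 in wild type and 4.34 to 4.56 in Notch, with 3 called higher in Dl and 3 lower in Notch. The 6 markers of fusion-competent myoblasts averaged 6.17 to 6.44 in Dl, 5.93 to 6.13 in lmd, 6.77 to 7.02 in wild type and 6.90 to 7.09 in Notch, and 3 were called lower in Dl and 2 in lmd. The eIF-4a control read higher at its 3′ than at its 5′ probe set by 2.83 to 3.74 in Dl, 2.80 to 3.87 in lmd and 2.90 to 3.43 in Notch. In wild type this was 2.37 to 2.79. For actin it was 1.64 to 1.88 in Dl, 1.69 to 2.12 in lmd, 1.35 to 1.60 in Notch and 1.00 to 1.34 in wild type. For GAPDH it was -0.18 to 3.51, -2.69 to 0.92, 2.485 to 2.791 and -1.63 to 0.53 in the same order. The genotypes matched for age thus differed in these controls. The part of each of these in the values was not tested.

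In wild type embryos, edl was the only member called between the sorted mesoderm and the GFP negative cells, 1 of 5 genes called higher against 8.03% of all probe sets. With so few genes, 1 call beside that share is not read as a trait of the members. Its GFP negative arrays of set 1 read 7.75, 8.01 and 7.65, those of set 2 7.46, 7.97 and 7.71, and those of set 3 7.19, 6.78 and 6.92. In each set every GFP positive array was above every GFP negative array, though in set 2 the nearest 2 arrays read 7.976 and 7.97. Over the 18 wild type arrays the difference was 0.51 ± 0.09 (1.42-fold, limma adjusted p = 0.000422), and within the sets it was 0.65 ± 0.10, 0.29 ± 0.10 and 0.59 ± 0.15. These within-set differences come from fits of all arrays of a set, where edl was called in each (limma adjusted p = 0.000307, 0.0482 and 0.0385). With the 6 wild type arrays of a set fitted alone, edl was called in set 1 (limma adjusted p = 0.0172) and not in set 2 or set 3 (0.245 and 0.0595). aop differed by -0.51 ± 0.18 (limma adjusted p = 0.0656), a mean over the unlike sets given above. Without GFP negative array 1B or GFP positive array 1B its adjusted p was 0.0483 and 0.0495, the former being the lowest of 18 fits. sty differed by 0.33 ± 0.13 (limma adjusted p = 0.0816). Within set 1 it differed by 0.43 ± 0.09 (limma adjusted p = 0.00338 with all arrays of the set, 0.00776 with its 6 wild type arrays alone). Over all sets sty was called without GFP negative array 2C or GFP positive array 2A (adjusted p = 0.0251 and 0.0178, the latter the lowest of 18 fits). Mkp3 and phyl were not called, with differences of -0.14 ± 0.12 at 149030_at, -0.80 ± 0.35 at 141660_at and -0.16 ± 0.10 for phyl.

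**Figure D4:**
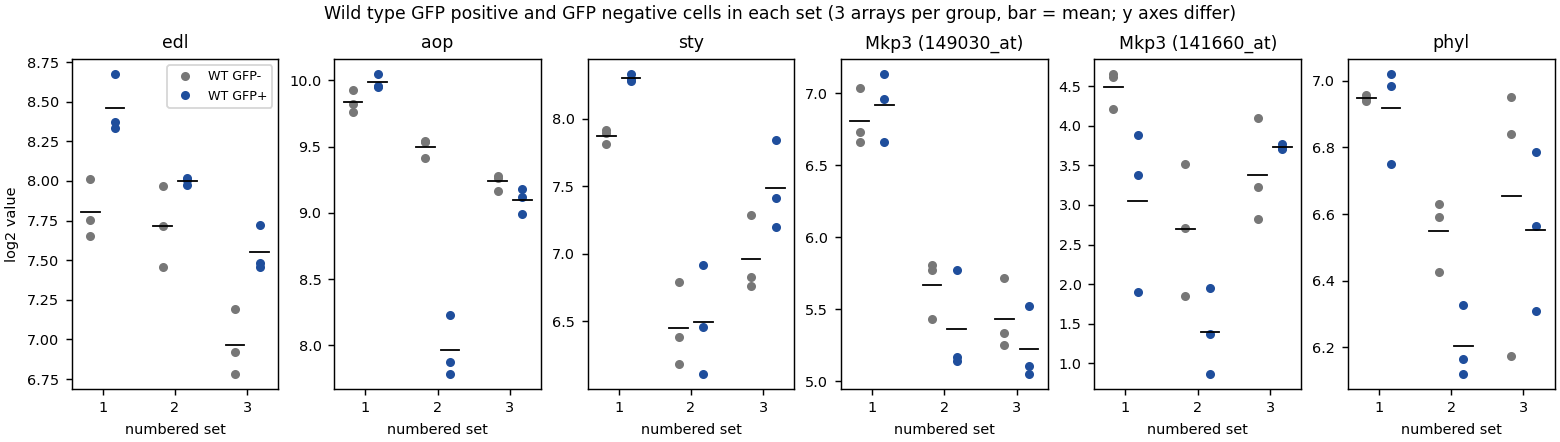
Log2 values (y axes, which differ) of both sorted fractions of wild type embryos in each numbered set (x axis), 3 arrays per group with a bar at the mean. edl was higher in GFP positive cells of each set, and aop was lower in GFP positive cells of set 2, at 7.79 to 8.23 against 9.42 to 9.54.

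Across the 54 arrays, centred on the mean of each set, edl went with phyl (Pearson r = 0.674) and with sty (r = 0.649), and less with aop (r = 0.268). sty and phyl correlated at 0.496. The arrays of a group share a genotype, so these are descriptions of 18 groups more than of independent points. The 2 Mkp3 probe sets did not go together: their correlation was -0.303, and 149030_at correlated with the other 4 genes at -0.102 to 0.0406. Which of them reads the Mkp3 transcript more faithfully cannot be told from these values. 149030_at was the brighter, and the second, 141660_at, varied by up to 1.59 (SD of 3 arrays, Pnt) within a group.

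**Figure D5:**
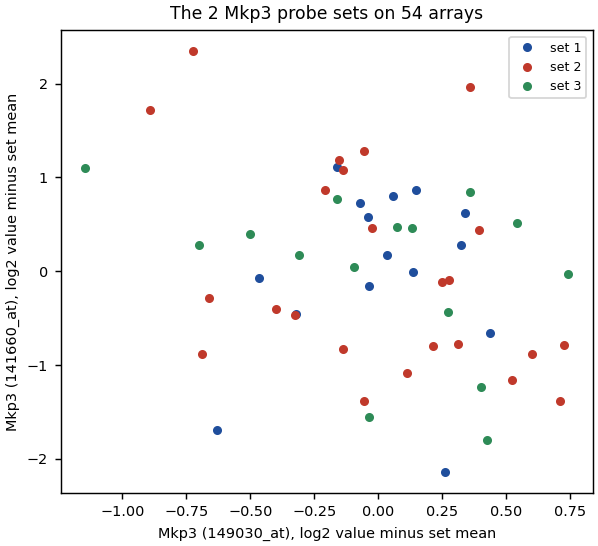
Each of the 54 arrays at Mkp3 149030_at (x axis) and 141660_at (y axis), as log2 value minus the mean of its set, coloured by set. The points do not rise together, and the correlation over them was -0.303.

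The genes whose pattern over the 54 centred arrays was most like a member were named by the highest correlation. For edl they were RhoGAP15B (r = 0.819), gukh (0.817) and Pgant6 (0.789). For phyl they were nuf (0.903), drongo (0.837) and again gukh (0.804). aop was most like 18w (0.744), S (0.732), which is the Star gene of EGFR ligand processing, and nuf (0.703). The nuf probe set found for aop was not the nuf probe set found for phyl. For sty they were Dtg (0.782), Past1 (0.76) and vkg (0.757), the last a collagen IV gene, and for Mkp3 geko, prim and mask (0.721, 0.721 and 0.716). Such correlations rest on shared genotypes and libraries.

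The rest of the pathway was read through 4 lists of genes, taken by 1 probe set each. Of 15 genes of the cascade from receptor adaptors to MAP kinase and its inhibitors 10 were measured, of 6 secreted or membrane EGFR feedback and target genes 4, of 3 partners of phyl in protein turnover 2 (sina and ebi), and of 8 other ETS factors and nuclear repressors 7. The remaining genes of the lists were not analysed here.

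In Ras 2 of the 10 were higher, against 2.47% of all probe sets, the adaptor gene drk by 0.78 ± 0.18 and 14-3-3zeta by 0.56 ± 0.07 (limma adjusted p = 0.0119 and 1.87e-05). In EGFR, FGFR and Arm+Ras limma called 0 of 10, with 2, 3 and 1 of 10 at an unadjusted p under 0.05. Over all probe sets 1.3%, 1.23% and 1.37% were called higher there. The median difference of the 10 genes was -0.00566 in EGFR and 0.146 in Ras. In wg, where 26.6% of all probe sets were called, 5 of 10 were called, drk and 14-3-3zeta higher and dos, Dsor1 (the MAP kinase kinase) and ksr lower. In Pnt 1 of 10, not named here, was called lower.

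Of the 4 feedback and target genes, Egfr was higher in FGFR by 0.54 ± 0.13, in Ras by 0.61 ± 0.17, in Arm+Ras by 1.02 ± 0.17 and in Tkv by 0.84 ± 0.17 (limma adjusted p from 0.00114 to 0.0453). In EGFR the Egfr probe set used for this list was 0.70 ± 0.13 higher (adjusted p = 0.0074), in embryos whose transgene is itself a form of this receptor. aos, the secreted antagonist of EGFR, was 2.81 ± 0.63 higher in FGFR (limma adjusted p = 0.0319). In EGFR it was at 2.16 ± 0.63 (adjusted p = 0.103), and EGFR minus FGFR was -0.65 ± 0.63 (adjusted p = 0.78), so no difference between the receptors was shown. ed, an adhesion protein gene that limits EGFR signalling, was higher in Ras by 0.83 ± 0.17, in Arm+Ras by 1.08 ± 0.17 and in Tkv by 0.82 ± 0.17. In wg, ed was 1.88 ± 0.17 higher and aos was at -2.72 ± 0.68 (limma adjusted p = 1.98e-08 and 0.00437). kek1, a membrane inhibitor of EGFR, was higher in Arm by 1.74 ± 0.51 and in Arm+Ras by 2.78 ± 0.51 (limma adjusted p = 0.0432 and 0.00279). In spi and in Pnt limma called 0 of these 4, and 0 of 4 passed an unadjusted p of 0.05. Over all probe sets 1.43% were called lower in spi and 3.87% higher in Pnt.

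sina, the partner of phyl, was lower in Arm at -1.26 ± 0.25 and in Pnt at -0.98 ± 0.25 (limma adjusted p = 0.00297 and 0.0157), and Arm+Ras was 1.71 ± 0.25 above Arm. That was 1 of 2 partners called lower in Arm, against 4.37% of all probe sets, and 1 of 2 in Pnt. Of the ETS factors and nuclear repressors, cic was the one called most often. This gene of a repressor that MAP kinase inactivates was lower in FGFR at -0.49 ± 0.11, in spi at -0.80 ± 0.11, in Pnt at -2.71 ± 0.47 and in wg at -2.39 ± 0.47 (limma adjusted p from 0.000405 to 0.0332). In EGFR cic was at -0.33 ± 0.11 (limma adjusted p = 0.187). No gene of this list was called between EGFR and FGFR, so no difference between the receptors was shown. gro, the gene of the corepressor Groucho, was lower in Pnt and in wg at -0.50 ± 0.14 and -0.42 ± 0.14. Of the 7 genes of this list, 1 was called lower in FGFR, 1 in spi (against 1.43% of all probe sets) and 2 in Pnt. In wg 2 were lower and 1, not named here, was higher, where 26.6% of all probe sets were called. Against wild type in set 3, limma called 0 genes of these 4 lists in Dl, lmd or Notch. Over all probe sets 0.859% were called higher in Dl, 0.365% higher in lmd and 1.06% lower in Notch, so 0 is near those shares. At an unadjusted p under 0.05 the Notch comparison had 1 of 10 cascade genes, 1 of 4 target genes and 1 of 7 ETS factors and repressors, lmd had 1 of 4 target genes, and Dl had 0 in each list. Between the sorted fractions of wild type embryos, 14-3-3zeta was 0.30 ± 0.10 higher in GFP positive cells, while ed, sina, ebi and cic were lower there, at -1.51 ± 0.19, -0.41 ± 0.11, -0.67 ± 0.10 and -0.85 ± 0.16 (limma adjusted p from 1.42e-05 to 0.0415).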

How the data were processed

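RNA of FACS-sorted cells from 18 groups, 3 arrays each, was hybridized to Affymetrix arrays. The deposited values are log2 summaries per probe set made by the authors. The submitters' processing notes name the affy package. Its version, background correction and normalization are not given in the sources used here. The 44 control probe sets were left out of all tests; 10 values in the table are missing, none of them in a member. Genes were named from the platform annotation.

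Each set was fitted with 1 mean per group in limma 3.58.1 (R 4.3.3), with a variance trend, and p-values were adjusted (Benjamini-Hochberg) over 13966 probe sets. For the GFP gate the fit took the 18 wild type arrays and a term for each set. An F test of the gate by set interaction gave its variation between sets. Errors are SE and intervals 95%. The fits were tested on simulated data. The members and gene lists were chosen with earlier results of these data known. The named genes are the members, called genes of the 4 lists (planned as at most 6 a comparison by smallest p) and the 3 genes most correlated with each member. Not every called gene of the lists is named. Alternatives were no variance trend, a second quantile normalization, the probe sets brighter than the median, only the groups compared, the mean of a gene's probe sets, the replicate letter as a block, each array left out, and, chosen after seeing the data, all arrays with the letter A left out.

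Same-letter arrays had correlations of their deviations from the group means of -0.0326 to 0.0945 in set 1. The range was -0.0324 to 0.113 in set 2 and -0.00108 to 0.155 in set 3. The medians in sets 1, 2 and 3 were 0.0248, 0.017 and 0.0402 for the same letter. For different letters they were lower, at -0.0126, -0.0094 and -0.0534. The reported fits did not take the letters as pairs, and small correlations do not show that the letters are without effect. The fit with the letter as a block is given below as an alternative. In set 1 the hybridization controls read 9.61 to 10.14 on arrays with the letter A and 7.41 to 8.09 on the others; the labels do not say what a letter marks.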

Additional observations from a re-analysis of the deposited data

Results flagged for a closer look

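In wild type, the difference of aop between the GFP positive and the GFP negative fraction varied between the 3 sets, as tested by limma's F test over the 18 wild type arrays (adjusted p = 5.57e-06, where 7.94% of all probe sets were called). In set 1 it was 0.15 ± 0.06, in set 2 -1.53 ± 0.14 and in set 3 -0.14 ± 0.11. The GFP negative arrays of set 2 read 9.54, 9.42 and 9.53 and the GFP positive arrays 8.23, 7.79 and 7.88, whereas the sets on either side had groups that lay within 0.15 of each other on average. The labels give the 3 wild type groups the same genotype and age. What differs between the sets in these cells was not tested.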

How the results depend on the processing

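Of the 132 pairs of a member probe set and a comparison, 55 were called. No called value changed sign under any alternative; among 794 recomputed values, 17 uncalled ones did. Of 900 values recomputed without an array, 793 kept their direction and side of the threshold, 44 uncalled ones changed sign, 54 lost a call and 9 gained one. The number of genes called (of 5) in spi fell from 1 to 0 when the letter A arrays were left out, with only the groups compared, with the mean over a gene's probe sets and with no variance trend. Without the letter A arrays it was 2 in Ras (5 in the reported fit), 1 in Tkv (2), 2 in wg (4) and 0 for the departure from the sum (1), with smaller losses in FGFR (3 of 4 kept), Arm+Ras (3 of 4) and Pnt (2 of 3). With only the groups compared it was 1 in Tkv, 1 for Arm+Ras against Ras (0), 0 for the departure, 1 in Dl (2), 0 in lmd (1), 1 for Dl against lmd (2) and 1 for Notch against lmd (3). That fit also lost Mkp3 149030_at in Ras (limma adjusted p = 0.101) and Pnt (0.0733), sty in wg (0.175) and aop in Notch against Dl (0.187). It gained sty in Pnt against Ras (limma adjusted p = 0.0363). Without the trend the number was 1 in Dl, 0 in lmd, 1 in Notch (2) and 1 for Dl against lmd, and with quantile normalization again 1 in Notch. Also lost without the trend were aop in FGFR (limma adjusted p = 0.0528), Mkp3 149030_at in Ras (0.0817) and sty in wg (0.0727). So were Mkp3 141660_at in Tkv (0.0550) and aop in Notch against Dl and against lmd (0.242 and 0.186). Quantile normalization again lost sty in wg (0.0807) and aop in Notch against Dl (0.0756). The mean over probe sets lost Mkp3 in Ras, Pnt and wg (0.503, 0.101 and 0.181) and gained it in Tkv (0.0355). For GFP positive against negative (1) the number of genes called was 3 among the probe sets brighter than the median, 2 in set 1 alone and 0 in set 3 alone. In set 2 alone it was 1, but a different gene: edl was not called (adjusted p = 0.245) and aop was called lower (-1.53, adjusted p = 0.000488). Leaving out 1 array gave 0 to 1 in spi, 1 to 2 in Arm, 3 to 4 in Ras, 1 to 2 in Tkv, 1 to 2 in Dl, 0 to 1 in lmd, 1 in Notch and 1 to 2 between GFP positive and negative. The causes were not tested, beyond fewer arrays in some fits. With the letter as a replicate block, 4 values gained a call and none lost one: Mkp3 141660_at in FGFR (limma adjusted p = 0.0459), aop lower in Dl (0.0227), phyl in Dl against lmd (0.00362) and sty lower in Notch against lmd (0.0351). The genes called were then 3 in Dl, 3 for Dl against lmd and 4 for Notch against lmd. Of the arrays, 11 of 15, 18 of 24 and 10 of 15 in sets 1, 2 and 3 correlated best with their own letter. With 3 arrays a group, precision is low; an unstated summary method and the dimness of 141660_at limit these results.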
